A study of Mus musculus with 3 samples.

Results

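The 4 Hox clusters were examined for YY1 peaks in mouse cardiac progenitor cells. Their members are the called intervals whose midpoint lies in 1 of 4 mm9 windows that hold the Hox genes with about 50 kb of flank. These windows are HoxA on chromosome 6 from 52050000 to 52260000, HoxB on chromosome 11 from 96000000 to 96280000, HoxC on chromosome 15 from 102700000 to 102920000, and HoxD on chromosome 2 from 74450000 to 74660000. They held 2 of the 3691 intervals of replicate 1 and 42 of the 115109 intervals of replicate 2. Position alone decided which intervals belonged, but the windows were chosen with earlier results of these data known.

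YY1 binding was measured by ChIP-seq, in which DNA bound by the protein is pulled down with an antibody and sequenced, in 2 samples of progenitors that had been sorted separately, and 1 input sample was not analysed here. Both samples came from C57BL/6 mouse embryonic stem cells that carried a green fluorescent reporter under Nkx2.5, a homeodomain factor of early heart cells. The cells were differentiated as embryoid bodies for 6 days, and the reporter-positive cells were collected by flow sorting. All groups shared the reporter and the day, and an anti-YY1 antibody was used in both ChIP samples. The sort defines the cells through 1 reporter, and interval lists hold no expression by which the cell type or its markers could be checked. Because no read totals were used, the depth is unknown for every call, and all confidence intervals cover counting error only. The very different lengths of the lists mean that counts and scores were compared within a list and never between them.

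Hox genes encode homeodomain transcription factors that give cells their position along the body axis. In each cluster they lie in the order in which they are used from head to tail, a property called collinearity. In embryonic stem cells the clusters are classic targets of Polycomb-group repressors, and the order of their opening during differentiation follows the order of the genes. YY1 is a zinc-finger protein that can activate or repress transcription. It is the mammalian counterpart of Pleiohomeotic, a fly protein that binds DNA and takes part in Polycomb repression.

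Of the Hox genes in the windows, 38 were considered here. In the RefSeq gene table, which belongs to GRCm38.p6, the low-coordinate end of HoxA is the Hoxa2 side and the high-coordinate end is the Hoxa13 side. HoxB, HoxC and HoxD run the other way, from Hoxb13 to Hoxb1, from Hoxc13 to Hoxc4 and from Hoxd13 to Hoxd1. Genes with high numbers, such as Hoxa13 and Hoxd13, act in the limb ends and the urogenital tract. Those with low numbers, such as Hoxa2, Hoxa3 and Hoxb1, act in the hindbrain, the neural crest and the pharyngeal region. The table gave names and neighbours only, since its build is not that of the intervals, so each interval is placed in a window and on a side of it, and not at a single gene.

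Promoter sequences of RefSeq (GRCm38.p6, 250 bases before to 50 after a start site) were read for the letters of the YY1 motif. They were matched for 22 of the 38 Hox genes, as 24 promoters; 9 of the genes are in HoxA and 9 in HoxD, and the others are Hoxb1, Hoxb4, Hoxb8 and Hoxc4. The letters GCCATNTT were sought on both strands, where N is any base, and so was GCCGCCAT, which can overlap the first in a longer YY1 motif. GCCATNTT was found in 1 of the 24 Hox promoters, against 6.05% of all 32851 promoters. GCCGCCAT was found in 0 of the 24, against 2.24% of all promoters. The single match was in the promoter of Hoxd10, which acts in the limb and the lumbar spinal cord. It is shown because it is the only such match, on the plus strand of GRCm38.p6 at chr2:74691838-74691867, with the motif, 42 to 35 bases before the start site, in capitals.
Hoxd10: tgcggctcaagGCCATTTTcaaatctcatt
These letters describe the reference. GRCm38.p6 positions cannot be set beside the mm9 intervals, so whether an interval of either sample lies at this promoter was not tested.

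YY1 intervals were about as frequent in the Hox windows as elsewhere on the same chromosomes. In replicate 2 the 920 kb of the 4 windows held 42 intervals, and 42.0 would be expected from the densities of the 4 chromosomes, a ratio of 1.001 (exact 95% Poisson interval 0.72 to 1.35). The intervals covered 0.336% of the windows and 0.346% of the 4 chromosomes. In replicate 1 the windows held 2 intervals where 1.34 would be expected (ratio 1.49, 0.18 to 5.39). With so few intervals expected, replicate 1 could show neither an excess nor a shortage of moderate size.

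The clusters themselves ranged from sparse to fairly dense. HoxA held 6 replicate 2 intervals in 210 kb, or 28.6 per Mb, against 45.3 per Mb on the rest of chromosome 6 (ratio 0.63, 95% interval 0.23 to 1.37). HoxB held 18 in 280 kb, or 64.3 per Mb, against 48.6 on the rest of chromosome 11 (ratio 1.32, 0.78 to 2.09). HoxC with 9 in 220 kb (40.9 per Mb) and HoxD with 9 in 210 kb (42.9 per Mb) lay close to their chromosomes, at ratios of 0.95 (0.43 to 1.80) and 0.96 (0.44 to 1.83). No difference between a window and its chromosome passed the test (exact binomial test, two-sided, Benjamini-Hochberg adjusted over the 4 windows, p = 0.656 for HoxA and HoxB and 1 for HoxC and HoxD). The gap between HoxA and HoxB did not exceed counting error either. HoxA had 0.44 times the density of HoxB (95% interval 0.14 to 1.17, exact binomial test, p = 0.098, adjusted over the 6 pairs of windows p = 0.589), and no other pair had a lower p. Relative to their own chromosomes the ratio was 0.48 (0.16 to 1.26, exact binomial test, p = 0.146, adjusted p = 0.729). This comparison of pairs was added after the counts were seen.

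Each window was then set among tiles of its own size laid end to end over the rest of its chromosome. The HoxA count of 6 exceeded that of 19.7% of 695 tiles, whose median was 9 and whose interquartile range was 6 to 12. HoxB, with 18, exceeded 76.0% of 421 tiles (median 13, interquartile range 9 to 17), and 84 of those tiles held more. HoxC and HoxD both held exactly the tile median of 9, above 45.6% of 454 tiles and 48.5% of 849 tiles. None of the 4 windows lay at an end of its distribution. The tile counts varied 1.83 to 2.69 times as much as independent placement gives (variance over mean), so the binomial p-values are too small and the intervals of the ratios too narrow.

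**Figure D1:**
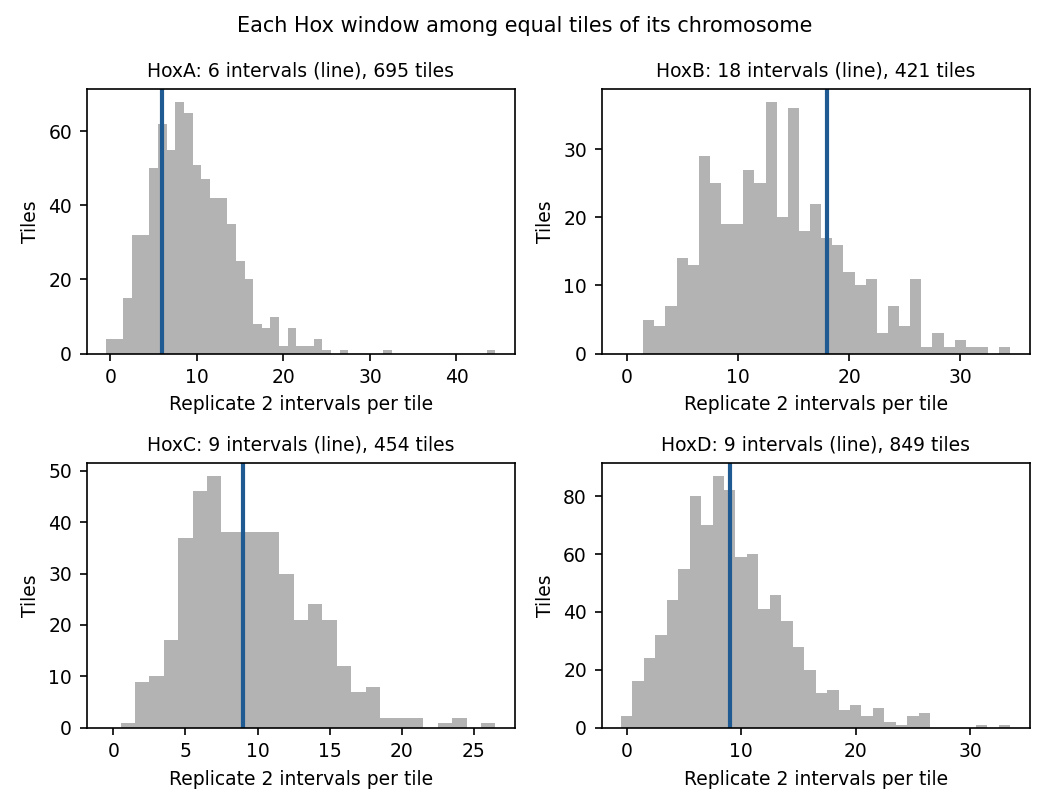
Histograms of replicate 2 intervals per tile (x axis) over all tiles of each chromosome (y axis, number of tiles), with the Hox window as a blue line. HoxA at 6 lies in the lower part of its distribution, HoxB at 18 in the upper part, and HoxC and HoxD at the median of 9.

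The counts of the clusters fell within the range of the tiles beside them. Around HoxA the 10 nearest tiles held 5 to 16 replicate 2 intervals, with a median of 10.5. Around HoxB they held 9 to 24 with a median of 16, so the HoxB count was close to that of its surroundings. Near HoxC, where the end of chromosome 15 leaves only 7 tiles, counts ran from 6 to 18 with a median of 10. Those beside HoxD ran from 4 to 14 with a median of 8.

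**Figure D2:**
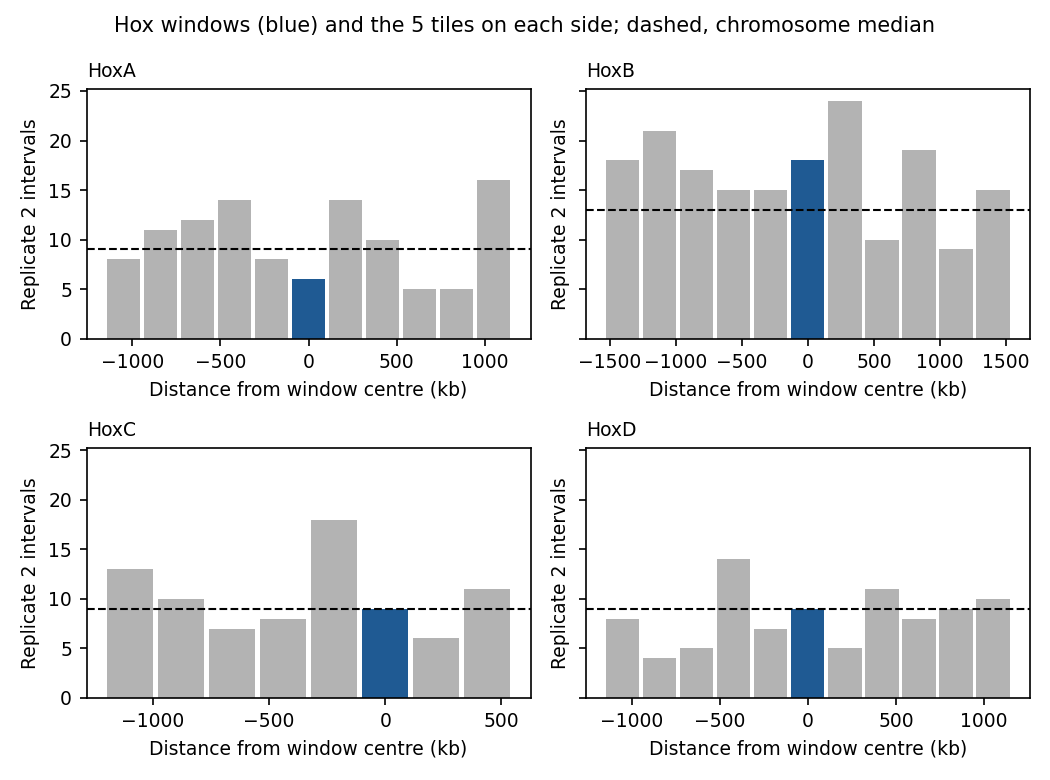
Replicate 2 intervals (y axis) in each Hox window (blue) and in up to 5 equal tiles on each side (grey) by distance from the window centre in kb, with the chromosome's tile median dashed. HoxB with 18 stands among tiles of 9 to 24, and HoxA with 6 among tiles of 5 to 16.

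The stretch that holds the genes was compared with the outer 50 kb on each side. In replicate 2, 25 intervals lay in the 520 kb of inner stretches (48.1 per Mb) and 17 in the 400 kb of edges (42.5 per Mb), a ratio of 1.13 (95% interval 0.59 to 2.23). This difference was within counting error (exact binomial test, two-sided, p = 0.757), and with edges of 40 kb the ratio was 0.96. HoxB had 14 inner and 4 edge intervals (ratio 1.94, 0.61 to 8.11). The other clusters had 3 and 3 (HoxA), 4 and 5 (HoxC) and 4 and 5 (HoxD). No cluster alone passed the test (exact binomial test, adjusted p = 0.993 or above). All 4 inner HoxC intervals of replicate 2 lay on the side of the window centre toward Hoxc13, a hair and nail gene. In the inner part toward Hoxc4, 0 lay in replicate 2 and 1 in replicate 1. The HoxC edges held 1 replicate 2 interval beyond Hoxc13 and 4 beyond Hoxc4. The parts of the window on the low and high side of its centre so held 5 and 4. For HoxD, also in replicate 2, the edge beyond Hoxd1 held 5 intervals and the edge beyond Hoxd13 held 0. These sides were noticed in the values and were not tested.

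**Figure D3:**
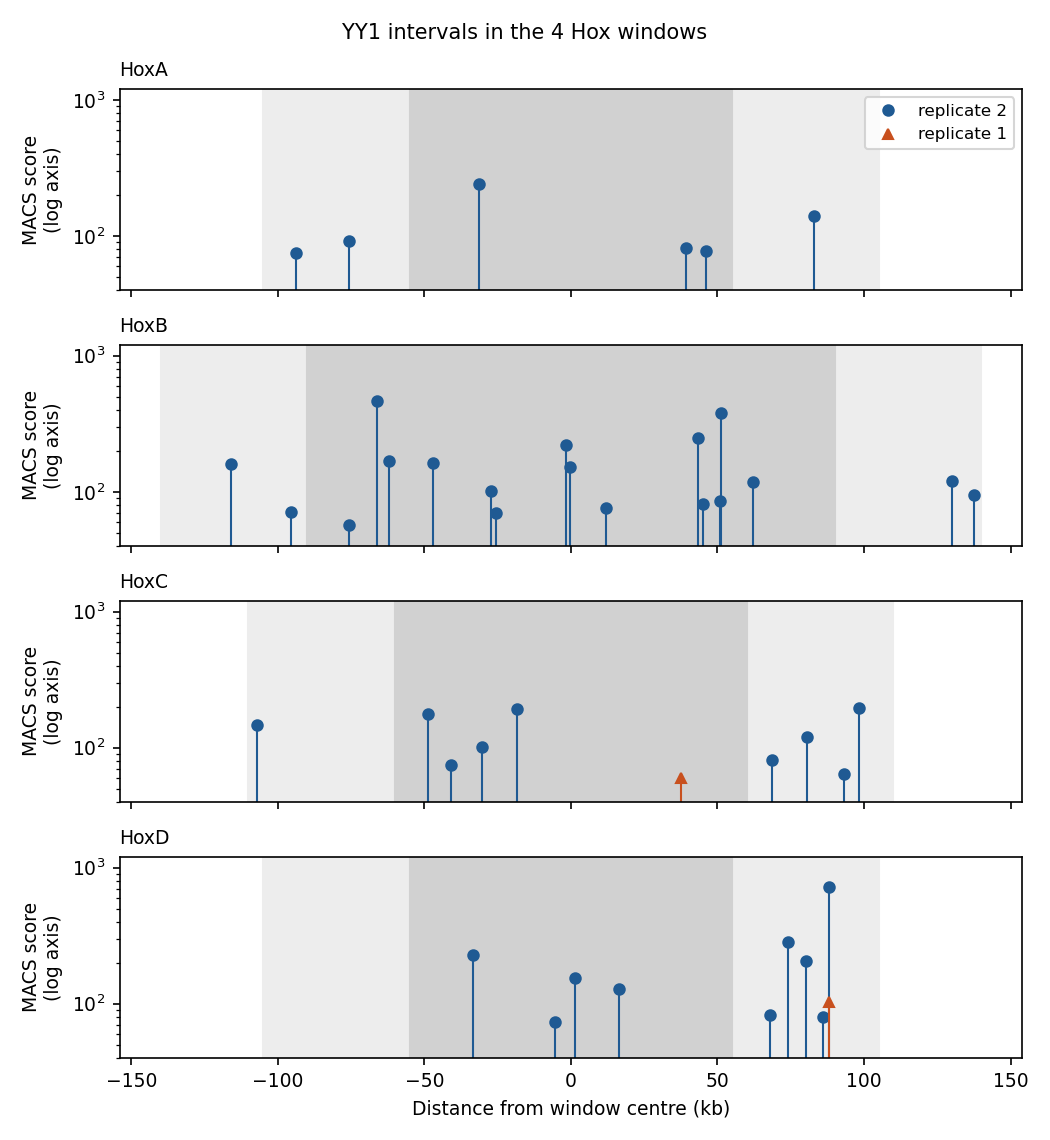
Called intervals by distance from the window centre in kb (x axis) and their MACS score (y axis, log), in replicate 2 (circles) and replicate 1 (triangles), with the inner stretch in dark grey and the 50 kb edges in light grey. Scores of the samples are not on a common scale. The replicate 1 and replicate 2 intervals coincide only in the upper edge of HoxD.

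The clearest interval of all 4 clusters was the one found in both sorts. It lay in the HoxD window on chromosome 2, 16.8 kb inside the upper end and so in the edge on the Hoxd1 side, outside the stretch of the genes. In replicate 2 it ran from 74643148 to 74643259 (112 bp) with a MACS score of 724, and in replicate 1 from 74643161 to 74643238 (78 bp) with a score of 103. The score is the authors' value for how strong a peak call is, with higher scores for stronger calls. The replicate 1 interval lay wholly within that of replicate 2, which reached 13 bp further on the low side and 21 bp further on the high side. It ranked 1803 in the replicate 2 list, above 98.4% of it, and 103 on chromosome 2. In replicate 1 it ranked 776, above 79.0% of the list. Among the intervals shared between the samples it was ordinary, above 71.2% of the 1452 shared replicate 2 intervals and 66.7% of the 1500 shared replicate 1 intervals.

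Thus 1 of the 2 replicate 1 intervals was shared, against 40.6% of the whole replicate 1 list (exact 95% binomial interval 1.26 to 98.7% for 1 of 2; Fisher's exact test against the rest of the list, two-sided, p = 1). Of the 42 replicate 2 intervals 1 was shared, or 2.38% (0.060 to 12.6%), against 1.26% of that list (Fisher's exact test, two-sided, p = 0.413). The replicate 2 share did not differ from that of its list beyond counting error. With only 2 replicate 1 intervals no outcome could have passed the test, so nothing is read from that share. HoxA and HoxB held 0 replicate 1 intervals, where 0.321 and 0.390 would be expected. A count of 0 still allows up to 3 by a one-sided limit, and the two-sided 95% intervals of these density ratios reached 11.6 and 9.55, so no absence can be read from it. Of the tiles on those chromosomes, 75.4% and 70.1% held 0 as well.

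The other replicate 1 interval was in the HoxC window on chromosome 15 from 102847621 to 102847703 (83 bp), in the inner stretch on the Hoxc4 side. Its score of 59.6 ranked 3166 of 3691, above 14.0% of the list, so it was a weak call. The nearest replicate 2 interval was 30794 bp away. It fell in the longest stretch of HoxC without a replicate 2 interval, 86.7 kb from 102791755 to 102878497. That stretch was longer than in 74.9% of the chromosome 15 tiles, whose median was 68.3 kb.

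The 5 replicate 2 intervals of the HoxD edge beyond Hoxd1 lay within 20.4 kb, from 74622878 to 74643259. From low to high coordinate their scores were 82.5, 285, 205, 79.3 and 724, the last being the shared one. The second of them, from 74628882 to 74629110, was the widest interval of any Hox window at 229 bp, wider than 97.9% of the list. Such a run was not rare, since 19.9% of the 729 chromosome 2 tiles with at least 5 intervals had a shorter one. Inside HoxD there were 4 intervals. The strongest, from 74521726 to 74521774 on the Hoxd13 side, scored 227. Those from 74556424 to 74556557, 134 bp wide, and from 74571302 to 74571346 scored 153 and 129, and that from 74549452 to 74549516 scored 72.8. The first 71.7 kb of the window, at its Hoxd13 end, held no replicate 2 interval, and 59.8% of the tiles had a shorter longest stretch of this kind. This empty stretch took in the whole edge beyond Hoxd13 and reached into the inner stretch that holds the genes.

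HoxB held the most intervals and 2 of the 3 Hox intervals that were in the top 10% of the replicate 2 list (scores above 296). The strongest, from 96073927 to 96074006 in the inner stretch on the Hoxb13 side, scored 465, above 96.0% of the list. Hoxb13 stands apart from the rest of its cluster and acts in the tail and the prostate. The next, from 96191028 to 96191116 on the Hoxb1 side, scored 377, above 93.9% of the list. It had a weaker neighbour from 96190918 to 96190969 with a score of 86.0, 58 bp away. These 2 were the only Hox intervals with another midpoint within 500 bp, against 9.63% of the replicate 2 list. Other HoxB intervals that led by score were those from 96183273 to 96183327 (250), from 96138442 to 96138485 (220) and from 96077969 to 96078032 (168). The widest HoxB interval, from 96092904 to 96093067 (164 bp), scored 162. The remaining 11 scored 56.7 to 161, and the lowest of them was the weakest Hox interval of the list.

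The tightest run of 5 intervals in HoxB spanned 18.8 kb, from 96183273 to 96202045. Of the 405 chromosome 11 tiles with 5 or more intervals, not matched on count, 27.7% had a shorter run. Beyond it, 67.8 kb from 96202046 to 96269809 were free of intervals, reaching into the edge beyond Hoxb1, close to the tile median of 67.4 kb. Hoxb1 acts in the hindbrain and is expressed in progenitors of the second heart field, the cells that extend the heart tube.

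HoxA was the sparsest cluster and its intervals were narrow. Their widths ran from 40 to 60 bp and they covered 0.145% of the window, and 13.4% of the chromosome 6 tiles had a smaller share covered. The strongest, from 52123499 to 52123543 on the Hoxa2 side of the inner stretch, scored 240, above 83.8% of the list. On the Hoxa13 side, those from 52194318 to 52194373 and from 52201151 to 52201204 scored 81.0 and 77.3, above only 15.7% and 12.7% of the list. Between these and the strongest one, 70.8 kb from 52123544 to 52194317 held no replicate 2 interval. The longest such stretch was shorter than this in 62.4% of the tiles. The edge beyond Hoxa13 held 1 interval, from 52237832 to 52237880, with a score of 140. The edge on the other side held 2, which scored 74.4 and 92.0 and lay from 52061269 to 52061328 and from 52079305 to 52079344. The 5 closest-set HoxA intervals spanned 140 kb, and 94.4% of the 608 chromosome 6 tiles with 5 or more intervals had a shorter run. Those tiles were not matched on count, and HoxA held 6 intervals against a median of 9 over all tiles.

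HoxC held no strong call. Its highest score was 196, from 102908342 to 102908402 in the edge beyond Hoxc4, above 75.4% of the list. Next came 191 (102791709 to 102791754), 178 (102761231 to 102761279) and 147 (102702774 to 102702824), and then 120 (102890524 to 102890599). The intervals scoring 191 and 178 lay in the inner stretch on the Hoxc13 side, with 2 weaker ones between them. The widest HoxC interval, from 102903185 to 102903295 (111 bp), was also its weakest at 64.2.

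By strength and width the Hox intervals resembled the replicate 2 list. Their scores had a median of 120 (lowest 56.7, highest 724) and those of the list one of 129. Scores above the list's upper quartile belonged to 10 of the 42 (23.8%), against 24.8% of the list. By cluster the median score was 86.5 in HoxA, 120 in HoxB, 120 in HoxC and 153 in HoxD. The highest score was 240 in HoxA and 196 in HoxC, against 465 in HoxB and 724 in HoxD. The median width was 61.5 bp against 61 bp. A width of 100 bp or more was found for 7 of the 42 (16.7%) and for 14.5% of the list. Those 7 were in HoxB (2), HoxC (1) and HoxD (4), and HoxA had none.

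**Figure D4:**
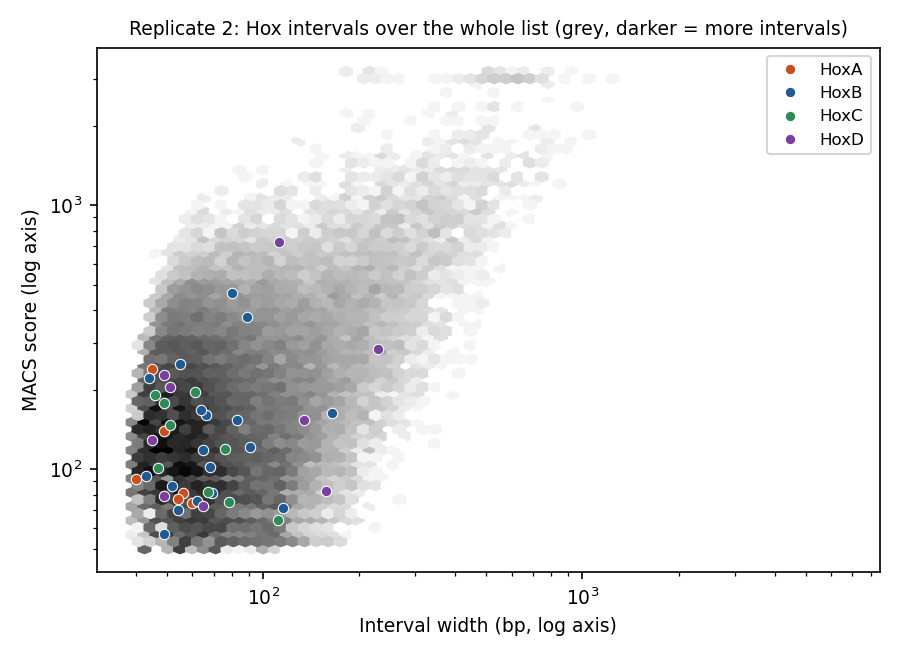
Width in bp (x axis, log) and MACS score (y axis, log) of the 42 replicate 2 intervals of the Hox windows, coloured by cluster, over the 115109 intervals of the list (grey, darker where there are more). Most Hox points lie at widths and scores that are common in the list, while the HoxD intervals with a score of 724 and with a width of 229 bp lie above 98.4% of it by score and 97.9% by width.

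The closest replicate 2 interval to any end was 0.758 kb outside HoxC on its low side, with a score of 129, and the closest inside was 2.63 kb from the upper end of HoxB, with a score of 94.1. The strongest of the 8 intervals next outside an end scored 368, 35.9 kb beyond the Hoxa13 side of HoxA.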

How the data were processed

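YY1 ChIP-seq intervals were analysed for 2 samples (replicates 1 and 2). Per the file headers, the authors called peaks with MACS in Galaxy; the score of each interval is the deposited MACS score, and neither its formula nor the aligner, MACS version and settings are given in the sources used here. There is 1 list per sample. Per the submitters' processing notes, intervals are on mm9. No mm9 genome or annotation was used. Coordinates are counted from 1, on the premise that the lists follow the BED convention.

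Windows, and the 38 genes, were chosen with earlier results of these data known. An interval belonged to a window by its midpoint; sharing meant an overlap of at least 1 bp. Chromosome length was the span from the first to the last replicate 2 interval. Window counts were tested by exact binomial tests, which compare positions within a list and not cultures. Tiles left out the window itself. The intervals named are all of replicate 1, in each window the 5 replicate 2 intervals with the highest score and the widest, pairs within 500 bp, and others added after their values were seen. The density test was checked on simulated counts with known ratios, drawn as under independent placement. That check does not cover the wider spread of the tile counts in these data. Counts and tests used SciPy 1.17.1, NumPy 2.4.6 and pandas 2.3.3 under Python 3.11.15; plots used matplotlib 3.10.9.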

Additional observations from a re-analysis of the deposited data

How the results depend on the processing

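The replicate 2 count over all windows relative to expectation stayed within its interval under all 7 alternatives. None of the 28 density ratios of single windows under these alternatives passed the threshold of 0.05 (0.41 to 1.77; lowest adjusted p in the exact binomial test 0.087, for HoxB with 100 kb added on each side, ratio 1.50). Ratios near 1 changed side. HoxC went from 0.95 to 1.002 with intervals closer than 500 bp merged, and HoxD from 0.96 to 1.02 with merging, 1.11 with the 50% of highest score and 1.77 with the 25% of highest score. The replicate 1 count over all windows, 1.49 times expectation, was 0.80 times with 100 kb added on each side and 2.84 times with the 25% of highest score. In replicate 1, where 1 interval makes a ratio of 2.97 in HoxC and 3.44 in HoxD, the ratio was 0 for HoxC with the 50% or the 25% of highest score and 0 for HoxD without the outer 50 kb, since that interval was left out. The share of replicate 1 intervals that were shared rose from 50% to 100% with the 50% of highest score, as only 1 interval was left. The inner over edge density of replicate 2 turned from 1.13 to 0.96 with edges of 40 kb, and in HoxD from 0.73 to 1.07 with edges of 60 kb. With 1000 random windows in place of tiles, the ranks of all 4 windows stayed within their binomial intervals. Merging intervals closer than 500 bp put HoxC above 50.4% of tiles and HoxD above 53.2%. Both lay past the upper limits of their binomial intervals, 50.3% and 51.9%, while HoxA and HoxB stayed within theirs. Keeping the upper 50% or 25% of replicate 2 by score put HoxA above 10.1% or 11.4% of tiles, HoxB above 59.4% or 56.3%, HoxC above 31.5% or 11.7%, and HoxD above 55.01% or 79.6%, against 19.7%, 76.0%, 45.6% and 48.5% with all intervals; the cause was not tested. With the 50% of highest score, coverage fell in all 4 windows and their longest stretches without an interval were 72.3 to 117 kb, as fewer intervals were left. Leaving out the shared HoxD interval, chosen after seeing the data, moved the median replicate 2 Hox score from 120.3 to 119.6. No paired analysis was possible because a single group has 2 replicates and the input holds no list here; for the same reason values are given per list and none could be recomputed without a replicate. Without read counts, a place with no call cannot be called unbound.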
